A study of Homo sapiens with 20 samples.

Results

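The cytoplasmic ribosomal protein genes were followed across 10 conditions of LNCaP cells, an androgen-responsive human prostate adenocarcinoma line. Rows were taken by their gene symbol, RPL or RPS with a number and an optional A, L, X or AL, together with RPLP0, RPLP1, RPLP2 and RPSA. The symbols matched 84 rows, and 1 of them (RPS10L, annotated as a processed pseudogene) was left out. This gave 83 genes of the 57773 rows in each count table, 50 of the large subunit and 33 of the small subunit.

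In the first experiment, LNCaP cells received 20 nM of a non-targeting control siRNA (siNTC) or of siRNA against EHMT1 (siEHMT1) for 2 days, with 2 samples each. In the second, 4 stable LNCaP-tet-EHMT1 lines carried a lentiviral transgene for V5-tagged EHMT1, either wild type (WT) or with lysine-to-arginine changes (K450R, K451R or both, K450RK451R), and were left untreated (Veh) or given 0.25 µg/mL doxycycline (Dox) for 2 days. All stable lines kept their own EHMT1 gene, and whether a line is 1 clone or a selected pool was not stated in the labels. The columns numbered 1 and 2 of each stable-line condition differed by no more than counting noise. Their chi-square statistic divided by its degrees of freedom lay at 0.995 to 1.02 over all genes and at 0.711 to 1.11 over the ribosomal protein genes. They were summed, so each condition is 1 sample and the 4 lines are the replicates of the Dox effect. For siNTC and siEHMT1 the same quantity was 61.6 and 13.4 over all genes, and 5.71 and 7.53 over the ribosomal protein genes. No source stated whether the siRNA samples came from separate cultures, so their p-values measure the spread between these samples, which may be technical.

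The siRNA samples held 5593400 to 12438006 counts in total, and the summed stable-line conditions 8436791 to 12407739. EHMT1, the targeted gene, stood at 87.8 and 83.6 CPM (counts scaled to a common library size) in siNTC, at 29.2 and 30.7 CPM in siEHMT1, at 71.7 to 88.9 CPM in the Veh conditions and at 663 to 842 CPM in the Dox conditions. The luminal markers of LNCaP, for example KLK3 (2917 to 8322 CPM), which encodes PSA, were high in every sample, whereas the basal markers KRT5 and TP63 and the leukocyte marker PTPRC were at 0. The other basal marker, KRT14, was at 0.225 to 1.52 CPM, and the leukocyte markers CD68 and CD3E were at 0 to 0.609 and 0 to 0.084 CPM. Of the fibroblast markers, COL1A1 was at 15.3 to 40.8 CPM in every sample, COL3A1 at 0.077 to 1.77 CPM and DCN at 0 to 0.077 CPM. The endothelial marker VWF was at 9.26 and 7.71 CPM in siNTC, 15.97 and 15.6 CPM in siEHMT1 (log2 difference 0.88 ± 0.19, adjusted p by edgeR 0.0721) and 3.35 to 7.25 CPM in the stable lines. The part of these markers in the results was not tested. The library siNTC replicate 2 stood apart. It was the shallowest, and 10.0% of its counts fell on 2 pseudogene rows that resemble ribosomal RNA (AC010970.2 and CTD-2328D6.1), against 0.0313% to 1.00% in the other samples. The main siRNA values are given with and without it.

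Each ribosome joins a large and a small subunit, and nearly every cytoplasmic ribosomal protein is needed in 1 copy per ribosome. The genes are among the most strongly transcribed of growing cells. Their mRNAs typically begin with a cytosine followed by a run of pyrimidines, the 5′ terminal oligopyrimidine (TOP) motif, through which mTORC1 and the RNA-binding protein LARP1 control their translation and stability. Many of the genes carry small nucleolar RNA genes in their introns, and their mRNAs have left many processed pseudogenes in the human genome.

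The start sites of the genes on which the results turn are shown first, because the TOP run is the sequence that the family shares. A RefSeq start window (GRCh38.p14, 250 bases before to 50 after the annotated start) was found for 65 of the 83 genes, and 63 of these windows occurred exactly once in GRCh37, whose coordinates are given. Each line holds 15 bases before and 15 after the annotated start, 5′ to 3′ on the strand of the gene, and capitals mark the pyrimidine run that begins with C within 5 bases of the start.
RPS16, chr19:39926575-39926604, minus strand: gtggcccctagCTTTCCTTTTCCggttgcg
RPS3A, chr4:152020765-152020794, plus strand: cgactcccacttccgCCCTTTTggctctct
RPL39, chrX:118925579-118925608, minus strand: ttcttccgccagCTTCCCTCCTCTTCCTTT
RPSA, chr3:39448196-39448225, plus strand: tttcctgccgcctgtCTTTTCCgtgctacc
RPL28, chr19:55897285-55897314, plus strand: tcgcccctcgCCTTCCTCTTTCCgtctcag
RPL26, chr17:8286497-8286526, minus strand: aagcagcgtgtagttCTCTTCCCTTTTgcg
RPS6, chr9:19380220-19380249, minus strand: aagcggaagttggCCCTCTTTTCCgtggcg
RPS27, chr1:153963223-153963252, plus strand: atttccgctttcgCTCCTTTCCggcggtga
RPS27L, chr15:63449662-63449691, minus strand: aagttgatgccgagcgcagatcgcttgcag
Of the 65 windows, 51 (78.5%) held such a run of at least 5 bases, against 21.1% of the 35116 windows of all genes in the same table. The run was 5 to 22 bases long with a median of 11. RPL39 had the run of 22 bases, whose end lies beyond the bases printed. RPS27L, the paralog of RPS27, had none. The 7-base ETS-type motif CCGGAAG was present on either strand in 22 of the 65 windows (33.8%, against 10.3% of all), the YY1-type motif AAGATGGC in 6 (9.23%, against 2.89%), the E-box CACGTG in 3 (4.62%, against 7.26%) and TATAAA in 6 (9.23%, against 11.5%). These matches describe the windows and are not evidence of binding.

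The level of the genes was described per kilobase of coding sequence, as CPM per kb after TMM scaling (edgeR's correction for library composition). Averaged over the 8 stable-line conditions, RPL37A was highest at 5315 CPM per kb, and RPL36 (3353), RPS24 (2872) and RPS6 (2862), the S6 kinase substrate, were also among the 5 highest. Across the siRNA samples, RPL37A was at 2900 CPM per kb. The counts are per gene and can include reads outside the coding sequence, so the ranking depends on this choice of length. RPL37A has 276 coding bases in a transcript of 2992 bases. At the other end, 2 of the 83 genes had 0 counts in every sample. RPL39L had at most 1 count and RPL3L, the striated muscle paralog of RPL3, at most 2 counts in any stable-line condition. RPL7 (3.23 CPM per kb), RPL36A (3.78), RPS10 (6.61), RPS26 (7.72) and RPL21 (9.46) were next.

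The lowest values belonged mostly to genes whose coding sequence also occurs in other annotated genes or elsewhere in the genome. For 82 genes, the share of 51-base windows of the coding sequence that also occur in another annotated gene or at another place in GRCh37 was computed, 51 bases being the read length. Windows counted in this way are called repeated. The share was 100% for 9 genes, among them RPL39, RPS27, RPS26 and RPL36A, and under 20% for 23 genes. The other annotated gene can overlap the same locus, as for RPL36A, RPS10 and RPL17. At 2 or more places in GRCh37 lay 73.88%, 74.16% and 86.65% of their windows. The median level in the stable lines was 1723 CPM per kb for the genes under 20% and 31.8 CPM per kb for the 15 genes at 90% or more, of which the highest reached 327 CPM per kb. In the siRNA samples the medians were 980 and 18.8 CPM per kb. Across genes, Spearman's rho between the level and the repeated share was -0.60 over 82 genes measured in the same libraries. RPL10L, RPL39L and RPL3L, the tissue-restricted paralogs, were low with 0% repeated. How the authors treated reads with several matches is not given in the sources used here, so the level of a repeated gene, and reads moving between it and its copies, cannot be told apart from these counts.

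**Figure D1:**
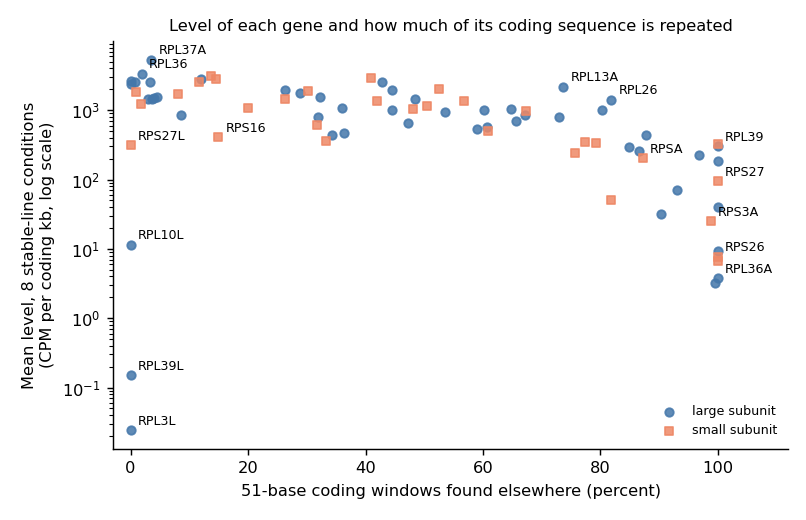
Each point is 1 ribosomal protein gene. The x axis gives the share of its 51-base coding windows found in another annotated gene or elsewhere in GRCh37. The y axis gives its mean level over the 8 stable-line conditions, in CPM per coding kb on a log scale. Genes with 90% or more repeated windows all lie at or below 327 CPM per kb, while RPL3L, RPL39L and RPL10L are low with 0% repeated, and genes at 0 counts are not drawn.

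Rows named as pseudogenes also held counts, and which gene these reads came from was not tested. The tables hold 845 rows named as pseudogenes of these genes, with 320511 counts in the stable lines and 90434 in the siRNA samples, or 0.207% to 0.414% of all counts per sample. RPSA had 14635 counts in the stable lines and its 26 pseudogene rows 15146. For RPS16 the 3 pseudogene rows had 32 counts against 14547 on the gene. Among the lowest genes, the pseudogene rows had 1026 counts against 187 on the gene for RPL7 and 332 against 266 for RPS10. They had 32 against 219 for RPS26, 141 against 374 for RPL21 and 35 against 97 for RPL36A, all in the stable lines.

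As a share of all counts, the 83 genes made up 2.69% and 2.19% of the siNTC samples and 2.77% and 2.65% of the siEHMT1 samples. In the stable lines the share was 3.95% for WT Veh and 4.14% for WT Dox, 4.13% and 4.06% for K450R, 4.37% and 4.36% for K451R, and 4.18% and 4.40% for K450RK451R. The exact binomial 95% interval was 2.18% to 2.20% for siNTC replicate 2 and 4.36% to 4.39% for K451R Veh, and the others were similarly narrow. The intervals cover counting error only. The shares of siNTC and siEHMT1 overlapped, and siNTC replicate 2 was the lowest. Without the rRNA-like rows the shares were 2.71% and 2.44% for siNTC and 2.80% and 2.65% for siEHMT1, which still overlapped. The summed level after TMM scaling was 25062 and 24224 CPM in siNTC and 27330 and 26320 CPM in siEHMT1, where the groups did not overlap. The order of Veh and Dox differed between lines. The mean log2 ratio of Dox to Veh was 0.028 ± 0.051 (SD, n = 4 lines) for the share of all counts, -0.054 ± 0.068 with TMM-scaled libraries and -0.023 ± 0.044 as a share of protein-coding counts, so the direction of the whole family under Dox depended on the scaling and each mean was smaller than the spread between lines. The shares of the siRNA samples lay below all stable-line shares. The mitochondrial 16S rRNA row, MT-RNR2, took 20.7% to 25.5% of the counts in the siRNA samples and 7.26% to 13.1% in the stable lines, and experiment and cell line cannot be told apart there.

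**Figure D2:**
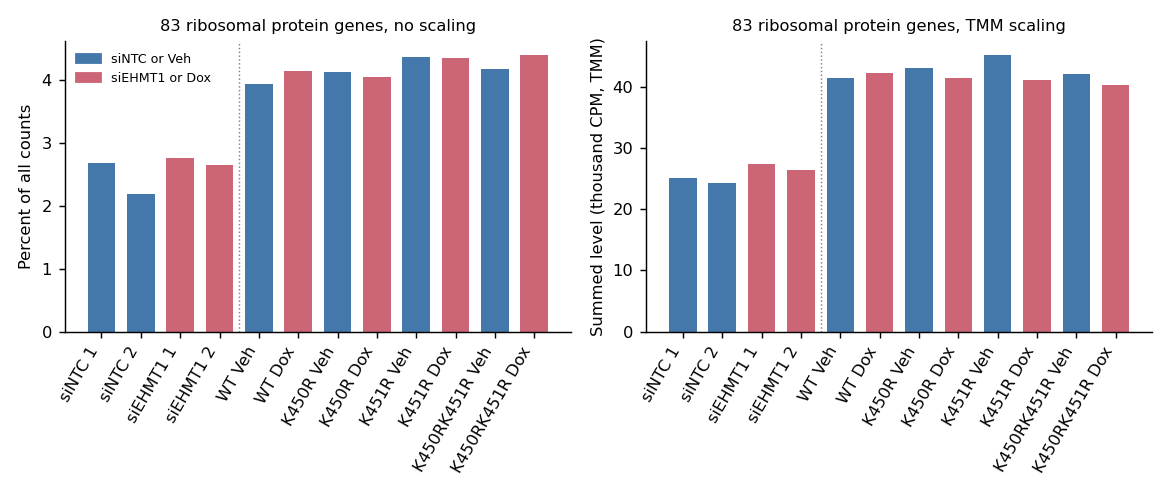
Bars give the 83 genes together in each of 4 siRNA samples and 8 stable-line conditions, as percent of all counts (left) and as summed level in CPM after TMM scaling (axis divided by 1000) (right), with siNTC and Veh in blue and siEHMT1 and Dox in red. The siEHMT1 and siNTC bars overlap in height on the left (2.65% and 2.77% against 2.19% and 2.69%) and not on the right, and for K450RK451R the order of Veh and Dox turns between the panels.

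The effect of EHMT1 silencing was compared over the 4 siRNA samples. After siEHMT1, RPS16 fell, and it was the only ribosomal protein gene called at an adjusted p under 0.05. Most other members lay slightly above siNTC without any of them passing the test. Of the 83 genes, 79 passed the filter on low counts. With edgeR's quasi-likelihood test and Benjamini-Hochberg adjustment over 14532 genes, 0 members were called higher and 1 lower, while 0.0619% of all genes tested were called higher and 0.0688% lower. At an unadjusted p under 0.05, 14 members were higher and 1 lower, against 4.51% and 5.07% of all genes. Without siNTC replicate 2 only 1 member was higher at that level, without siEHMT1 replicate 1 it was 8 and without siNTC replicate 1 it was 21. With library size in place of TMM 2 were higher and with upper-quartile scaling 22. These 2 scalings called 22 and 15 genes in all at the adjusted threshold, against 19 in the main fit. The share of all genes at the unadjusted level was not computed for any of these alternative fits. DESeq2 and limma-voom also called 0 members higher.

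RPS16 encodes a small subunit protein whose tail reaches the decoding site. The gene (ENSG00000105193) lies at chr19:39923777-39926589 on the minus strand of GRCh37, holds no snoRNA gene, and 14.95% of its coding windows were repeated. Its level was 109 and 96.0 CPM in siNTC and 72.9 and 67.9 CPM in siEHMT1. Both siEHMT1 samples thus lay below both siNTC samples. The log2 fold change was -0.55 ± 0.10 (SE), with an adjusted p of 0.0304 by edgeR. It was -0.64 without siNTC replicate 2, the library that stood apart (adjusted p by edgeR, 0.000742), and -0.45 without siNTC replicate 1, where the call was lost (adjusted p by edgeR, 0.0809). With library size in place of TMM and with no filter on low counts the adjusted p by edgeR was 0.414 and 0.122. In the stable lines, Dox did not move RPS16 beyond the threshold (Veh 160 to 228 CPM, Dox 163 to 175 CPM, log2 change -0.18 ± 0.07, adjusted p by edgeR 0.176).

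The members with the smallest p above siNTC were RPL26, RPS18 and RPL11. RPL26, a large subunit protein at the mouth of the exit tunnel, stood at 376 and 340 CPM in siNTC and at 438 and 456 CPM in siEHMT1, a log2 difference of 0.32 ± 0.09 (adjusted p by edgeR, 0.200). RPS18, of the small subunit head, was at 444 and 414 CPM against 516 and 521 CPM. RPL11, which with RPL5 and 5S rRNA forms the particle that binds MDM2, was at 446 and 393 CPM against 518 and 492 CPM. In all 3 genes the groups did not overlap, yet the differences did not pass the adjusted threshold. Without siNTC replicate 2 the log2 differences were 0.25, 0.22 and 0.18 for RPL26, RPS18 and RPL11 (adjusted p by edgeR 0.796, 0.909 and 0.990). RPL5, its partner, was level at 289 and 272 CPM against 296 and 284 CPM, and the groups overlapped. Below siNTC, RPS2 (249 and 282 CPM against 240 and 230 CPM) and RPL22 (57.3 and 72.5 CPM against 59.4 and 54.5 CPM) had the smallest p after RPS16. Neither passed.

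Of all 79 members tested, 68 had a positive log2 fold change, against 49.6% of all genes tested, and the median was 0.11 against -0.00 over all genes. Both siEHMT1 samples lay above both siNTC samples for 43 members (19.9% of all genes) and below for 5 (19.8% of all genes). Without siNTC replicate 2 the median was 0.11 with 67 of 79 above 0, and both siEHMT1 samples lay above the remaining siNTC sample for 50 members (32.9% of all genes) and below it for 6 (33.2%). The same-numbered samples gave medians of 0.12 and 0.11. The large and small subunits had medians of 0.11 and 0.12. Among members with under 20% repeated windows the median was 0.09 over 21 genes, 19 of them positive. The members range from RPS16 at -0.55 to RPS27 at 0.76 ± 0.29 (3.9 and 2.8 CPM against 5.2 and 6.4 CPM, all coding windows repeated, adjusted p by edgeR 0.402).

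**Figure D3:**
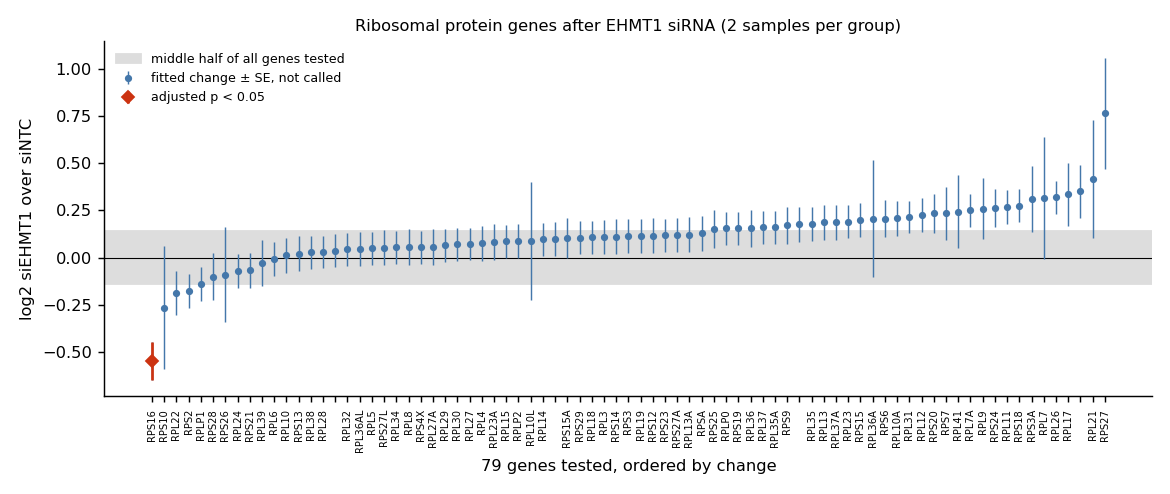
The 79 tested genes are ordered by their log2 fold change of siEHMT1 over siNTC (points, with the SE of the fit as bars) and the grey band holds the middle 50% of all genes tested. RPS16, the red diamond at -0.55, is the only member with an adjusted p under 0.05, and 68 of the 79 points lie above 0. A few points carry no gene name.

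RPL3L went the other way at very low counts, with 6 and 5 counts in siNTC and 0 in both siEHMT1 samples. It did not pass the filter, and a count of 0 allows up to 3 counts per library. RPL3 itself was at 611 and 623 CPM against 688 and 642 CPM. Of the other proteins with a particular role, the stalk proteins RPLP0, RPLP1 and RPLP2 had log2 differences of 0.15, -0.14 and 0.09, RPS6 of 0.21, RPS27A, which is made as a fusion with ubiquitin, of 0.12, and RPSA, the laminin receptor precursor, of 0.13. None of them passed the adjusted threshold.

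The genes that act on or beside the ribosomal proteins were counted in the same fit, and 0 of them were called in any list. Of 30 genes for ribosome assembly and export, 7 lay above 0 and 23 below with a median of -0.07, led by RRS1 (-0.63 ± 0.18, adjusted p by edgeR 0.201), which brings the 5S particle into the large subunit. Of 12 genes for RNA polymerase I transcription, 3 lay above 0 and 9 below (median -0.06), with the smallest p for POLR1B (-0.36 ± 0.10). Of 19 genes of the mTORC1 and LARP1 arm, 3 lay above and 16 below (median -0.11), with the smallest p for RPS6KB2 (-0.35 ± 0.10). Of 22 other genes with TOP mRNAs that were tested, 10 lay above and 12 below (median -0.02). That list holds translation factors, importins, chaperones and RNA-binding proteins, and also FAU, which encodes a ribosomal protein as a fusion and whose symbol lies outside the rule for members. The 74 tested mitochondrial ribosomal protein genes had a median of 0.05. Of 8 genes downstream of the RPL5 and RPL11 particle, 2 lay above and 6 below, with MDM2 at -0.21 ± 0.09. MYC, which drives ribosomal protein gene transcription, was at -0.28 ± 0.09 (adjusted p by edgeR, 0.270). Without siNTC replicate 2, RRS1 was called at -0.78 (adjusted p by edgeR, 0.00949), the only call in these lists. The medians were then -0.08 for assembly, -0.09 for RNA polymerase I, -0.13 for mTORC1 and LARP1, -0.01 for the other TOP genes, 0.03 for the mitochondrial ribosomal proteins and -0.12 downstream of the 5S particle, and MYC was at -0.33 (adjusted p by edgeR, 0.393).

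Dox was compared with Veh over the 4 stable lines, with the line as a block. No line without an EHMT1 transgene received Dox, so EHMT1 induction and doxycycline itself cannot be told apart. Each line also carries a different form of EHMT1. With Dox, RPS3A, RPL39 and RPSA fell, and no member rose past the threshold. Of the 79 members tested, 0 were called higher and 3 lower, while 0.603% of the 14105 genes tested were called higher and 1.5% lower (2.1% in either direction). At an unadjusted p under 0.05, 1 member was higher and 17 lower, against 6.87% and 7.55% of all genes. Without K451R 5 members were lower at that level, without WT 28, and with library size in place of TMM 10 were higher and 5 lower. The share of all genes at that level was not computed for these fits. Genes called at the adjusted threshold numbered 114, 501 and 433 in them, against 296 in the main fit. The 3 called genes host snoRNA genes, as do 29 of the 79 tested members, and have repeated coding sequence (98.8%, 100% and 87.2% of windows).

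RPS3A (chr4:152020776-152025794), a small subunit protein near the mRNA exit, had Veh and Dox levels of 23.3 and 18.3 CPM in WT, 18.3 and 16.4 CPM in K450R, 29.4 and 16.1 CPM in K451R, and 22.01 and 14.0 CPM in K450RK451R. It was lower with Dox in 4 of 4 lines, and the log2 change was -0.53 ± 0.12 (adjusted p by edgeR, 0.0149). It was -0.54 when its 34 pseudogene rows were added to it (adjusted p by edgeR, 0.00918). Those rows held 93 counts against 1578 on the gene in the stable lines. Adding them could therefore change little, and it does not test whether reads were shared with copies.

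RPL39 (chrX:118920467-118925593), a very small protein of the peptide exit tunnel, was at 52.2 and 34.5 CPM in WT, 41.6 and 45.5 CPM in K450R, 72.8 and 36.9 CPM in K451R, and 44.9 and 38.5 CPM in K450RK451R. It was lower in 3 of 4 lines and higher in K450R. The log2 change was -0.43 ± 0.11 (adjusted p by edgeR, 0.0324), and -0.39 with its 13 pseudogene rows added (adjusted p by edgeR, 0.0513).

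RPSA (chr3:39448207-39467746) was at 194 and 158 CPM in WT, 179 and 170 CPM in K450R, 230 and 177 CPM in K451R, and 177 and 161 CPM in K450RK451R. It was lower in 4 of 4 lines, by -0.23 ± 0.06 on the log2 scale (adjusted p by edgeR, 0.0411). With its 26 pseudogene rows added the change was -0.15 (adjusted p by edgeR, 0.153). For all 3 genes K451R had the highest Veh level, and without that line none was called, at -0.40 for RPS3A (adjusted p by edgeR 0.242), -0.23 for RPL39 (0.436) and -0.17 for RPSA (0.360). DESeq2 called none of the 3 (adjusted p 0.0801, 0.596 and 0.0977), whereas limma-voom called all 3. Leaving out another line also lost calls: RPSA without WT (0.0822) and without K450R (0.0599), RPL39 without WT (0.0714) and RPS3A without K450RK451R (0.0659), all adjusted p by edgeR.

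**Figure D4:**
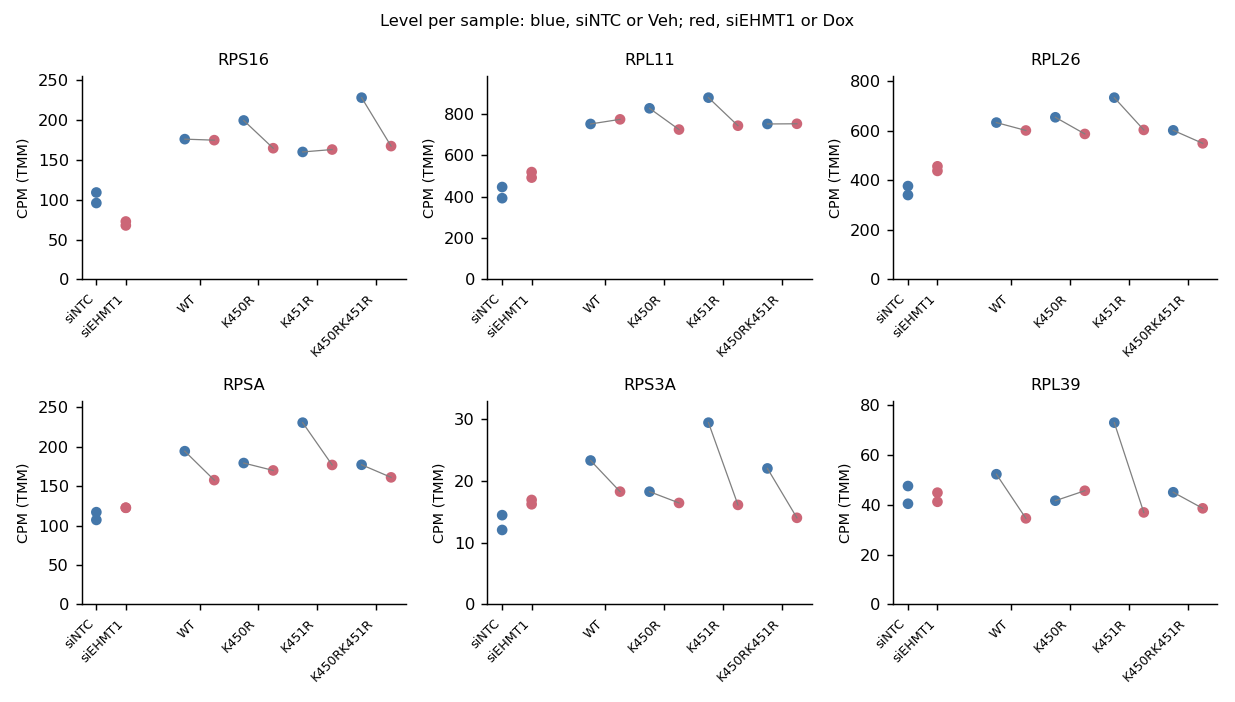
Level in CPM after TMM scaling of RPS16, RPL11, RPL26, RPSA, RPS3A and RPL39 in every siRNA sample and stable-line condition, with lines joining Veh (blue) to Dox (red) within a stable line and each axis starting at 0. RPS16 is lower in both siEHMT1 samples, and the K451R Veh point is the highest Veh point for RPSA, RPS3A and RPL39.

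The member with the smallest p above Veh was RPL28, a large subunit protein with 8.59% of windows repeated. It was at 304 and 369 CPM in WT, 345 and 384 CPM in K450R, 317 and 381 CPM in K451R, and 364 and 378 CPM in K450RK451R. All 4 Dox levels lay above all 4 Veh levels, and the log2 change was 0.19 ± 0.05, which missed the threshold (adjusted p by edgeR, 0.0666). Under limma-voom, upper-quartile scaling, library size alone and no filter it passed (adjusted p 0.00701 to 0.0474). RPL23A (0.10) and RPS15 (0.10) were next above Veh. RPL32 was below Veh in 4 of 4 lines at -0.17 ± 0.05 (adjusted p by edgeR, 0.0731), and it was called lower by DESeq2 (adjusted p 0.0449) and limma-voom (0.0252).

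Over the 79 members the median log2 change with Dox was -0.07, against 0.00 for all genes, and 63 lay below 0. They were lower in 4 of 4 lines for 25 members (10.3% of all genes) and higher in 4 of 4 for 3 (10.6% of all genes). For the 21 tested members with under 20% repeated windows the median was -0.03, with 7 above 0 and none called. Without K451R the median over all tested members was -0.03. With library sizes alone in place of TMM the member median turned to 0.01 while that of all genes rose to 0.09. By line, the member median was 0.01 in WT, -0.06 in K450R, -0.15 in K451R and -0.07 in K450RK451R, with 42, 23, 9 and 18 of the 79 members above 0, against 51.3%, 51.2%, 49.6% and 50.1% of all genes tested. A single line has no replicate check.

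Among the Veh conditions, K451R stood highest. K451R Veh was the highest of the 4 Veh conditions for 52 of 79 members, against 25.4% of all genes tested, and its summed level was 45151 CPM against 41349 to 43011 CPM in the other Veh conditions. WT Dox was the highest of the 4 Dox conditions for 39 members, against 29% of all genes. The summed levels with Dox lay between 40240 and 42283 CPM. Across the 79 members, Spearman's rho between the Dox change and the GC content of the coding sequence (42.1% to 63.0%) was 0.50, over genes that share the same 8 libraries. A correction for GC content left the same 3 genes called, with a median of -0.08. The part of sequence composition in the remaining values was not tested.

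**Figure D5:**
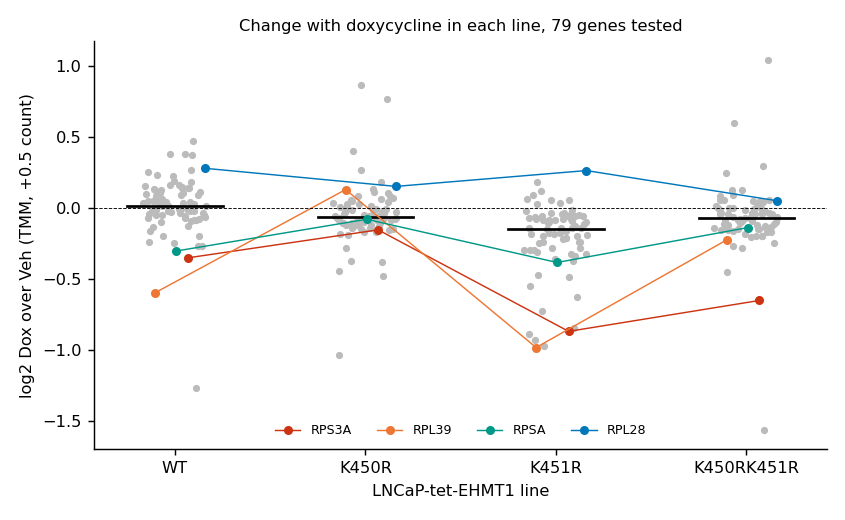
Each grey point is the log2 ratio of Dox to Veh of 1 of the 79 tested genes in 1 of the 4 stable lines, and black bars are the medians (0.01 in WT, -0.06 in K450R, -0.15 in K451R and -0.07 in K450RK451R). Coloured lines follow RPS3A, RPL39, RPSA and RPL28, of which RPL28 is above 0 in every line and RPL39 is above 0 in K450R.

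Among the proteins with a particular role, none passed besides RPSA and RPL39. RPLP0 (-0.11), RPLP1 (-0.03), RPL5 (-0.07), RPL11 (-0.10), RPS6 (-0.06) and RPS27A (-0.18) lay below 0 and RPLP2 (0.03) above. Without K451R, RPL11 was at -0.05 and RPS27A at -0.12, and with library size in place of TMM they were at -0.02 and -0.10. For the X-linked RPS4X the Veh levels were 845 to 912 CPM and the Dox levels 786 to 874 CPM. RPS27 was at 20.8 to 30.2 CPM in Veh and 18.7 to 25.6 CPM in Dox, and its paralog RPS27L, a p53 target, at 69.8 to 93.7 CPM and 71.3 to 84.2 CPM. Within lines, RPS27 was lower with Dox in 4 of 4, by log2 ratios of -0.24, -0.44, -0.55 and -0.04 in WT, K450R, K451R and K450RK451R, and its fitted change of -0.31 ± 0.11 did not pass (adjusted p by edgeR, 0.126). RPS27L was higher with Dox in 2 of 4 lines. RPL36AL, a paralog of RPL36A, was at 131 to 150 CPM in Veh and 122 to 147 CPM in Dox, while RPL36A, with every window repeated, had 6 to 21 counts per condition.

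In the neighbouring lists, Dox raised MYC (106 to 142 CPM in Veh, 134 to 209 CPM in Dox, log2 change 0.46 ± 0.06, adjusted p by edgeR 3.68e-05), the single call among 9 transcription factors of ribosomal protein genes. HNRNPA1, an RNA-binding protein with a TOP mRNA, fell (-0.37 ± 0.09, adjusted p by edgeR 0.0187), the single call among the 22 other TOP genes tested, whose median was -0.02. Of 30 assembly genes, 12 RNA polymerase I genes and 19 genes of the mTORC1 and LARP1 arm, 0 were called, and their medians were 0.02, 0.05 and 0.08. In these 3 lists 16, 6 and 12 genes lay above 0. The 73 tested mitochondrial ribosomal protein genes had a median of 0.01.

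The Dox effect in WT was also set against the mean Dox effect in the 3 mutant lines, as a difference. The paper reports wider chromatin binding of EHMT1 with both lysine changes but not with a single one. The mean over 3 mutant lines is therefore a different contrast, and K450RK451R alone was not tested against WT here. No ribosomal protein gene was called (0 higher and 0 lower of 79), while 0.156% and 0.00709% of the genes tested were called higher and lower, 0.163% in all. At an unadjusted p under 0.05, 6 members were higher and 1 lower, against 3.47% and 3.62% of all genes. DESeq2 and limma-voom also called 0. The median difference was 0.10 against 0.00 for all genes, with 68 of 79 members above 0 (50.3% of all genes). The median was 0.07 without K451R, and 0.04 with library size in place of TMM, where that of all genes was -0.06. At the unadjusted level, 14 members were higher without K450R, 15 with limma-voom, 12 with GC correction, and 2 with DESeq2 and with library size in place of TMM. The share of all genes at the unadjusted level was not computed for these alternative fits. As WT is 1 line, the test takes its spread from the 3 mutant lines.

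RPS20, of the small subunit head, had the smallest p. It rose from 390 to 457 CPM in WT and went from 411 to 366, from 465 to 410 and from 399 to 379 CPM in K450R, K451R and K450RK451R. WT was thus opposite to all 3 mutant lines, and the difference was 0.37 ± 0.11 (adjusted p by edgeR, 0.299). RPS25, needed for some internal initiation sites, went from 321 to 377 CPM in WT, while K450R went from 351 to 356, K451R from 474 to 342 and K450RK451R from 350 to 340 CPM (0.40 ± 0.13, adjusted p by edgeR 0.430). The largest move of RPS25 within a line was in K451R, with a log2 ratio of -0.469. Without K450R, RPS25 was called at 0.49 (adjusted p by edgeR, 0.00223). That fit takes its spread from K451R and K450RK451R only, and it called 101 genes in all against 23 in the main fit. Over 16 alternative settings the RPS25 difference lay between 0.245 and 0.490, and no other setting called it. RPLP1, of the stalk, went from 354 to 404 CPM in WT and from 367 to 355, from 395 to 373 and from 394 to 348 CPM in the mutants (0.29 ± 0.11). On the other side, RPS26 had the smallest p at -1.62 ± 0.72, on 1.3 to 3.9 CPM, followed by RPS27L (-0.24). In the same fit 21 of the 22 other TOP genes, FAU among them, lay above 0, with a median of 0.11 and 0 called, and the mitochondrial ribosomal protein genes had a median of 0.01.

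Between the experiments, levels can only be set side by side, since the tables were normalized separately and the cells differ. Of 79 genes, 72 were higher in the stable lines, with a median ratio of mean levels of 1.57. For 13 of the 79 the ranges overlapped between the experiments. The same share over all genes was not computed, so the count cannot be read as a trait of this family. The extremes were RPS27, 5.24 times higher in the stable lines (18.7 to 30.2 CPM against 2.8 to 6.4 CPM), and RPL36A and RPS26, at 0.268 and 0.430 of their siRNA level. All 3 have 100% of their coding windows repeated. RPS27L, with 0% repeated, was at 0.710 of its siRNA level. RPS16 had a ratio of 2.07, the largest after RPS27.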

How the data were processed

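LNCaP cells were profiled by RNA-seq in 4 siRNA samples and 16 stable-line columns (8 conditions). The authors made libraries from total RNA with a stranded kit and deposited raw counts, whole numbers of reads per Ensembl gene, as 2 tables without normalization. Reads were single-end of 51 bases on hg19, and the submitters' processing notes name FastQC 0.11.9, STAR 2.7.2 and featureCounts 1.6.4. The annotation release, the strand setting and the treatment of reads with several matches are not given in the sources used here. Reads on a gene and on an antisense partner may therefore not be separated, which concerns RPS3A and RPSA among the called genes. Annotated exons of RPS3A, RPL39 and RPSA also overlap snoRNA genes on the same strand (SNORD73A, SNORA69, and SNORA6 with SNORA62). The part of snoRNA reads in their counts was not tested.

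Columns numbered 1 and 2 of a stable-line condition were summed. Counts were scaled by TMM, filtered with filterByExpr and tested in R 4.3.3 with edgeR 4.0.16 (quasi-likelihood, legacy = FALSE), adjusted by Benjamini-Hochberg over all genes. Designs were siEHMT1 against siNTC, Dox against Veh with the line as a block, and the Dox by WT interaction. Log2 ratios within a line used 0.5 added counts. Gene positions and coding sequences came from the GENCODE annotation lifted to GRCh37, in which 82 of the 83 genes had a coding sequence. RefSeq start windows were searched for short motifs on both strands. Windows for 18 genes, among them RPL23, RPL23A, RPL30, RPL37, RPL39L, RPL3L, RPL5, RPL7, RPL8, RPS15A, RPS2 and RPS20, were not used here. The procedures were also run on simulated counts with the same dispersion for every gene and no outlying library. That run does not show how they behave on the siRNA samples, where siNTC replicate 2 stood apart.

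The members and gene lists were chosen with earlier results of these data known. Named were the called members or the 3 with the smallest p in each direction, members with a paralog or a particular role, the highest and lowest per length, and at most 3 genes of each list by p. RPL32 and the genes compared between experiments were chosen after their values were seen. A few genes that this rule picks are not reported here. Alternatives were DESeq2 1.42.0, limma-voom (limma 3.58.1), the legacy method, other scalings and filters, the replicate block and leaving out samples or lines. GC correction, adding pseudogene rows to their parents, restricting to members with few repeated windows, and the protein-coding denominator were added after the data were seen. Total counts of 5593400 to 12438006 per sample set the precision.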

Additional observations from a re-analysis of the deposited data

How the results depend on the processing

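The replicate numbers did not pair the siRNA samples, since the deviations of same-numbered samples had a correlation of 0.00410 over 14532 genes. With the replicate block 127 genes were called in place of 19, and 1 ribosomal protein gene was called higher (RPL26, 0.32, adjusted p by edgeR 0.0492) and 1 lower (RPS16, -0.54, adjusted p by edgeR 0.000405). The cause of the changes below was not tested.

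Members called higher with Dox went from 0 to 1 (RPL28) with columns numbered 1 only, library size without TMM, limma-voom, no filter on low counts and upper-quartile scaling. These fits called 208, 433, 285, 346 and 298 genes in all, against 296 in the main fit. Members called lower with Dox went from 3 to 0 with columns numbered 2 only, without the line block and among members with under 20% repeated windows, and to 1 with DESeq2, library size without TMM and pseudogene rows added to their parents. Calls over all genes changed as well, from 296 to 219 with columns numbered 2 only and to 4 without the line block. DESeq2 called 137 genes, library size without TMM 433 and the fit with pseudogene rows added 296. Leaving out 1 line gave 0 (without K451R) to 4 (without WT, where RPL26, RPL32, RPS24 and RPS3A were called). These 2 fits called 114 and 501 genes in all. After siEHMT1, members called lower went from 1 to 0 with library size without TMM and with no filter, and leaving out 1 sample gave 0 (without siNTC replicate 1) to 1. In all, 22 genes were called after siEHMT1 with library size without TMM and 12 with no filter, against 19 in the main fit. For WT against the mutants, members called higher were 0 to 1 when 1 mutant line was left out (1 without K450R, where 101 genes were called in all against 23).

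The median over members after siEHMT1 was 0.142 with library size without TMM, 0.137 with upper-quartile scaling and 0.0900 among members with under 20% repeated windows, and it was 0.0871 to 0.127 when 1 sample was left out. The median with Dox turned to 0.0104 and that of WT against the mutants was 0.0403 with library size without TMM. The mean log2 share ratio of Dox to Veh turned to -0.0540 with TMM-scaled libraries and to -0.0229 with protein-coding counts.

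Some named genes changed sign in settings where they did not pass the test. With Dox, RPL10 was -0.0129 with columns numbered 1 only, -0.0157 to 0.0954 leaving out 1 line. RPL10L was 0.0256 with columns numbered 2 only, 0.0738 with library size, 0.00389 with upper-quartile scaling, -0.137 to 0.111 leaving out 1 line. RPL3 was -0.000312 to 0.0561 leaving out 1 line. RPL5 was 0.016 with library size. RPLP1 was 0.0516 with library size, -0.105 to 0.0165 leaving out 1 line. RPS6 was 0.0197 with library size. After siEHMT1, RPL10 was -0.0246 with GC correction, -0.0486 to 0.0722 leaving out 1 sample. RPL10L was -0.249 to 0.399 leaving out 1 sample. RPL36A was -0.235 to 0.514 leaving out 1 sample. RPL36AL was -0.00493 to 0.0962 leaving out 1 sample. RPL39 was 0.00972 with library size, -0.145 to 0.0886 leaving out 1 sample. For WT against the mutants, RPL10 was -0.022 to 0.148 leaving out 1 line. RPL36AL was -0.0401 with columns numbered 1 only, -0.0327 to 0.119 leaving out 1 line. RPL39 was -0.546 to 0.0154 leaving out 1 line. RPL5 was -0.0206 with library size. RPLP0 was -0.018 with library size. RPS27 was -0.00219 to 0.256 leaving out 1 line.

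Depth limits the lowest members: RPL36A had 6 to 21 counts per stable-line condition.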
